A study of Rattus rattus with 8 samples.

Results

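The genes described here are 10 genes of the oxidative stress response, the transcription factor Nrf2 (gene Nfe2l2) and 9 genes of antioxidant defence, many of which it regulates. They were chosen by their RefSeq accession, and 11 of the 30367 probes of the array carry one of the accessions: Txnrd1 has 2 probes and every other gene 1. Messenger RNA was measured in whisker hair follicles of 8 male adult Sprague-Dawley rats, with 1 array per rat and the follicles of a rat pooled. The question was whether the follicle responds to a simulated blast. Of the rats, 3 were sham control rats at 0 kPa (C1, C2 and C3). The other 5 received a single shock wave to the head, M2 and M3 at 145 kPa, H1 at 175 kPa, and XH1 and XH3 at 200 kPa. The study's methods describe isoflurane anaesthesia for the exposure and a day or a week of observation before the follicles were pulled, but which period belongs to which rat is not given in the sources used here, so it entered no comparison. The 175 kPa group is a single rat.

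In resting cells the protein Keap1 binds Nrf2 and directs it to degradation, and oxidants or electrophiles that modify Keap1 let Nrf2 accumulate and enter the nucleus. There it binds antioxidant response elements and raises transcription of genes for quinone reduction, heme breakdown, glutathione synthesis and thioredoxin reduction. This control acts largely on the Nrf2 protein, which arrays of messenger RNA do not measure. In skin and hair follicles these enzymes are part of the defence of keratinocytes against oxidants.

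Levels are given as log2 of the quantile-normalized intensity, so that a difference of 1 is a doubling, and they are compared between rats for one probe only. Before normalization the median processed signal of an array ranged from 90.9 in C2 to 280.5 in C1, and of its 58717 non-control spots between 65.9% and 73.0% stood well above background. The probes of 9 genes had every spot well above background on all 8 arrays, and none was saturated. The exception was Gclm. Since the follicle is a mixture of cell types, fewer cells of a type and less RNA per cell cannot be told apart in these values.

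Of the 10 genes, 4 were higher and 6 lower in the blast rats, with a median log2 fold change of -0.19, and without Gclm 3 were higher and 6 lower. Over all 30366 probes tested the median was 0.00, with 15500 higher and 14866 lower. In limma, 0 of the 10 genes passed an adjusted p under 0.05, as did 0 probes in all (0%). Cat alone passed an unadjusted p under 0.05, and 1 of 10 stands beside 2.8% of all probes in either direction and 1.62% in the lower direction. For 0 of the 10 genes did all blast rats lie on one side of all sham rats, against 2% of probes on either side and 1.04% below. The limma adjusted p of every gene in this comparison was 0.9999. The median size of the log2 fold change was 0.22 for the 9 genes without Gclm, 0.25 for all 10 and 0.19 for all probes.

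**Figure D1:**
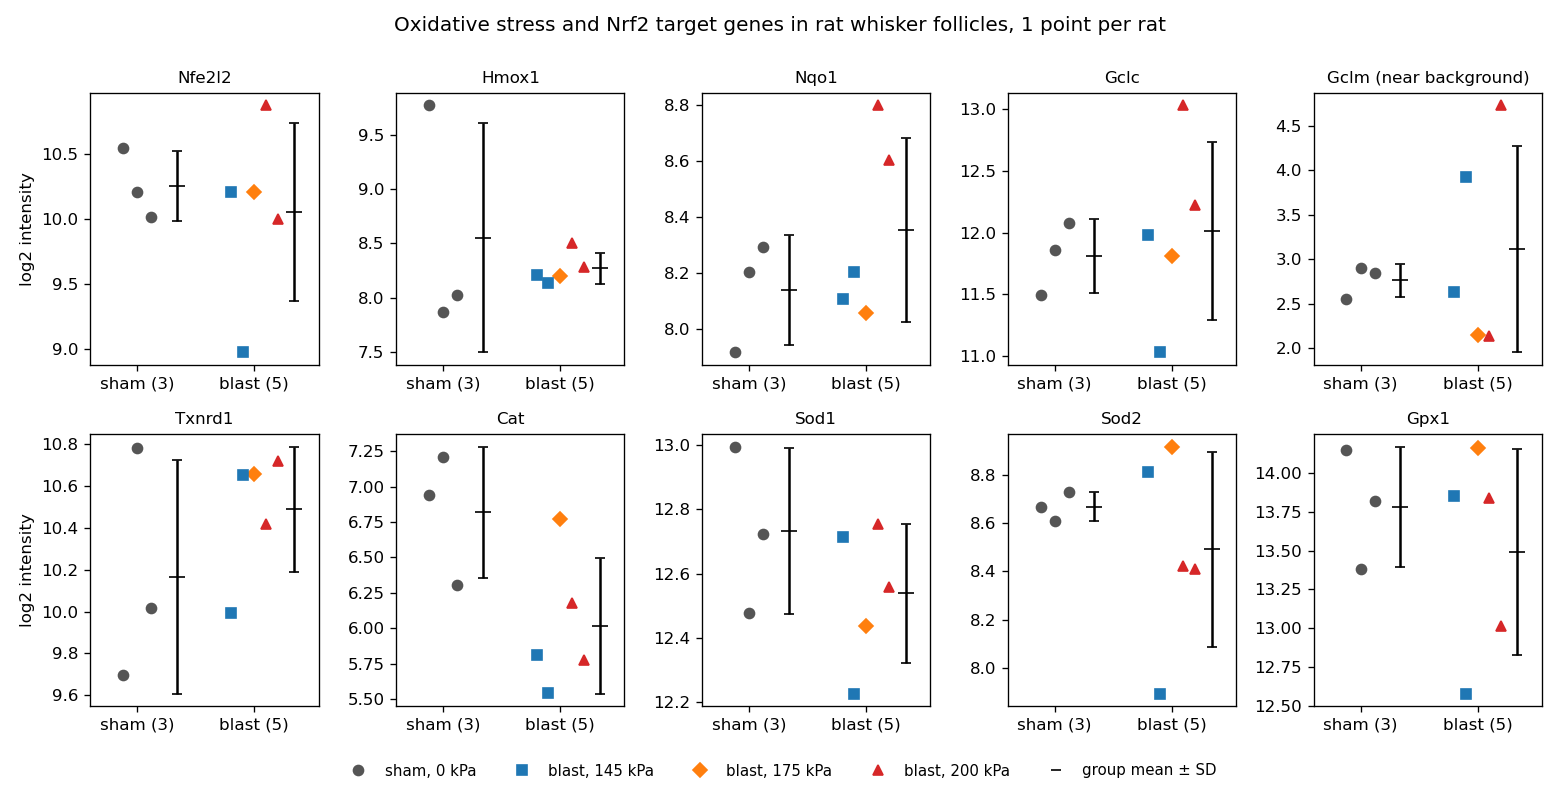
Log2 intensity of each gene in every rat, with sham rats on the left and blast rats on the right of each panel, symbols for the pressure, and bars for the group mean ± SD. The groups overlap in all 10 panels; for Cat, 4 of 5 blast rats lie below the sham rats.

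Nfe2l2, the gene of Nrf2 itself (NM_031789), had levels of 10.55, 10.20 and 10.01 in C1, C2 and C3. The blast rats had 10.21 in M2, 8.97 in M3, 10.21 in H1, 10.88 in XH1 and 9.998 in XH3. The lowest and the highest of the 8 rats were both blast rats, M3 and XH1, and the rest lay between 9.998 and 10.55. The log2 fold change was -0.20 (SE 0.39), with a 95% interval from -1.12 to 0.72 and a two-sided exact permutation p of 0.679. Its sign was not stable: it was 0.07 without M3 and 0.08 with array quality weights, and within the left columns of the slide it was 0.26, against -0.48 within the right columns, -0.17 within the first row and -0.06 within the second.

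Hmox1 (NM_012580) encodes heme oxygenase 1, which opens the heme ring and releases iron, carbon monoxide and biliverdin. In sham rats its level was 9.77 in C1, 7.87 in C2 and 8.02 in C3. In blast rats it was 8.21 in M2, 8.14 in M3, 8.20 in H1, 8.51 in XH1 and 8.29 in XH3. The 5 blast rats lay close together above C2 and C3, and the single high rat was C1, a sham rat whose array also had the highest median signal. The log2 fold change was -0.28 (SE 0.42, exact permutation p = 0.75). Without C1 it turned to 0.32, and with array quality weights it was 0.08. It was -0.61 within the first row of the slide and -0.54 within the left columns, which hold C1, and 0.29 within the second row and 0.34 within the right columns. Across the 8 rats Hmox1 was positively correlated with the log2 median signal of the array (r = 0.84, exact permutation p = 0.0237, rho = 0.76, p = 0.0368, adjusted 0.229 and 0.332), and r was 0.53 without M2 and C1. The part of the array signal in the level of Hmox1 was not tested.

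Nqo1 (NM_017000) encodes a reductase that turns quinones into hydroquinones, and it is widely used as a readout of Nrf2 activity. It had levels of 7.92, 8.20 and 8.29 in C1, C2 and C3, and of 8.11 in M2, 8.20 in M3, 8.06 in H1, 8.80 in XH1 and 8.60 in XH3. Both rats at 200 kPa lay above the other 6 rats, while the rats at 145 and 175 kPa lay among the sham rats. For blast against sham the log2 fold change was 0.22 (SE 0.21, exact permutation p = 0.357). It was 0.10 without C1, 0.10 without XH1 and 0.12 with the slide row as a block, and it was 0.02 and 0.24 within the first and second rows and 0.35 and 0.08 within the left and right columns.

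Gclc (NM_012815) encodes the catalytic subunit of glutamate-cysteine ligase, which carries out the rate-limiting step of glutathione synthesis. Its level was 11.49 in C1, 11.86 in C2 and 12.08 in C3, and 11.98 in M2, 11.03 in M3, 11.81 in H1, 13.03 in XH1 and 12.22 in XH3. Here also both rats at 200 kPa lay above the other 6, with XH1 far above, and M3 lay lowest. The log2 fold change for blast against sham was 0.21 (SE 0.41, exact permutation p = 0.661), and leaving out 1 rat at a time moved it between -0.05 (without XH1) and 0.45 (without M3). Within the first and second rows of the slide it was 0.22 and 0.01, and it was 0.72 within the left columns and -0.17 within the right. Gclm (NM_017305), the modifier subunit of the same enzyme, was not well above background in full on any array. Its probe had 2 of 16 spots well above background, 1 on XH3 and 1 on M3, so no fold change is given for it in any comparison.

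Txnrd1 (NM_031614) encodes the cytosolic reductase that keeps thioredoxin reduced. The brighter of its 2 probes had 9.70 in C1, 10.78 in C2 and 10.02 in C3, and 9.99 in M2, 10.65 in M3, 10.66 in H1, 10.42 in XH1 and 10.72 in XH3. The sham rats spanned the range of the blast rats, and C2 was the highest of all. The log2 fold change was 0.32 (SE 0.28, exact permutation p = 0.393) for this probe and 0.29 (SE 0.24, exact permutation p = 0.286) for the other. For the brighter probe it was 0.09 without C1 and 0.63 without C2, where it had an unadjusted p under 0.05. Within the first and second rows of the slide it was 0.09 and 0.58, and it was 0.35 within the left columns and -0.11 within the right. Txnrd1 was negatively correlated with the log2 median signal of the array (r = -0.76, exact permutation p = 0.0213, rho = -0.62, p = 0.115, adjusted 0.229 and 0.517), but r was -0.03 without M2 and C1, so this relation rests on those rats.

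Cat (NM_012520) encodes catalase, the peroxisomal enzyme that breaks down hydrogen peroxide. Its level was 6.94 in C1, 7.21 in C2 and 6.30 in C3. In the blast rats it was 5.81 in M2, 5.55 in M3, 6.77 in H1, 6.18 in XH1 and 5.78 in XH3. The rats at 145 and 200 kPa all lay below the lowest sham rat, whereas H1 at 175 kPa lay within the sham range, so the groups overlapped. Sham rats had a mean of 6.82 ± 0.46 (SD, n = 3) and blast rats 6.02 ± 0.48 (SD, n = 5). This is a log2 fold change of -0.80 (SE 0.32, 95% interval -1.56 to -0.04), or 1.74-fold lower with an interval from 1.03 to 2.94. The unadjusted limma p was 0.0407 and the two-sided exact permutation p 0.0536, where 0.0179 is the smallest the 56 ways to part the rats can give. The call at an unadjusted p under 0.05 was lost with the methods' one-way analysis of variance, with array quality weights (log2 fold change -0.57) and with the slide row as a block (-0.65). It was also lost without M2 (-0.75), C1 (-0.74), C2 (-0.61), XH1 (-0.84), XH3 (-0.74) or M3 (-0.68), and it held without H1 (-0.99) and without C3 (-1.06). With normexp background correction the difference was -0.46, a change in size of over 1.5 times, and the call held. Within the first row of the slide the difference was -0.78 and within the second -0.47, and it was -0.63 within the left columns and -1.17 within the right.

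Sod1 (NM_017050) and Sod2 (NM_017051) encode the cytosolic and the mitochondrial superoxide dismutase, which turn superoxide into hydrogen peroxide. Sod1 ranged from 12.48 to 12.995 in sham rats and from 12.23 to 12.76 in blast rats, and its log2 fold change was -0.19 (SE 0.17, exact permutation p = 0.304). Without C1 it was -0.06 and without C2 -0.32, and it was negative within each row and each side of the slide, from -0.21 to -0.07. Sod2 lay between 8.61 and 8.73 in the sham rats, an SD of 0.06, and spread from 7.89 in M3 to 8.92 in H1 among the blast rats, an SD of 0.40. Its log2 fold change was -0.18 (SE 0.23, exact permutation p = 0.536). Without M3 it was -0.03, and it was 0.23 within the first row of the slide, -0.49 within the second, -0.08 within the left columns and -0.20 within the right. Gpx1 (NM_030826) encodes the selenium enzyme glutathione peroxidase 1, which reduces peroxides with glutathione. It was 14.15, 13.38 and 13.82 in C1, C2 and C3, and from 12.58 in M3 to 14.16 in H1 in blast rats, with a log2 fold change of -0.29 (SE 0.39, exact permutation p = 0.589). Without M3 it was -0.07 and without C1 -0.11, and without C2 -0.49. It was 0.24 within the first row of the slide, -0.67 within the second, -0.14 within the left columns and -0.13 within the right. For Sod1, Sod2 and Gpx1 the groups overlapped, and M3 was the lowest rat for each. Sod1 was positively correlated with the log2 median signal of the array (r = 0.72, exact permutation p = 0.0437, adjusted 0.254, rho = 0.48, p = 0.243, adjusted 0.517), and r was 0.24 without M2 and C1. For Gpx1 that r was 0.64 (exact permutation p = 0.0842, adjusted 0.349, rho = 0.74, p = 0.0458, adjusted 0.332), and it was also 0.64 without those rats. Sod1, Hmox1 and Txnrd1 were the 3 of 10 genes with an unadjusted exact permutation p under 0.05 for r with the array signal, and 0 passed after adjustment. Of 16822 probes well above background, 12.3% had an r with the array signal at least as large in size as that of Sod1. For Txnrd1 this share was 8.49% and for Hmox1 2.68%. The part of the array signal in the levels of Sod1 and Gpx1 was not tested.

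**Figure D2:**
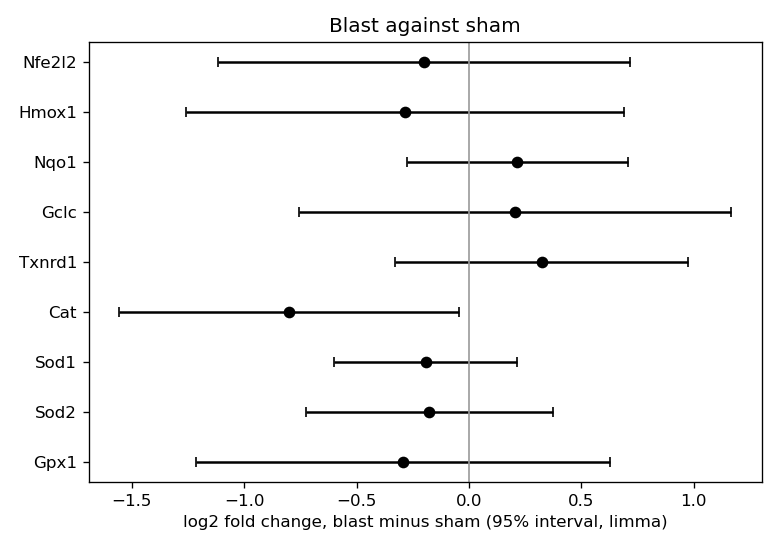
Log2 fold change of blast minus sham with the 95% interval from limma for the 9 genes measured above background. The interval of Cat ends at -0.04, and the other intervals include 0.

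The rats at 145 and at 200 kPa were also each set against the same 3 sham rats, in a limma fit over the 4 pressures. Because the sham rats are shared, the values are given side by side. Of the 9 genes above background 2 were higher and 7 lower at 145 kPa, where 49.1% of all probes were higher, and 4 were higher and 5 lower at 200 kPa, where 53% were. An unadjusted p under 0.05 was reached by 1 gene at 145 kPa, where 4.92% of all probes reached it, and by 2 genes at 200 kPa, beside 4.91%. For Cat the log2 fold change was -1.14 (SE 0.31) at 145 kPa and -0.84 (SE 0.31) at 200 kPa, and both are among these calls. Nqo1, the other call at 200 kPa, had 0.02 (SE 0.17) at 145 kPa and 0.56 (SE 0.17) at 200 kPa. Gclc had -0.30 (SE 0.40) at 145 kPa and 0.81 (SE 0.40) at 200 kPa, with no call at either pressure, and at 200 kPa it was 0.41 without XH1 and 1.22 without XH3. With 2 rats against 3 an exact permutation test cannot go below 0.1, so these calls rest on the spread pooled by limma. The calls changed when a rat was left out. Without M2 or M3 the 145 kPa group is 1 rat, and without XH1 or XH3 the 200 kPa group is, so that the spread comes from the other groups alone and a call shows how that rat lies, not a difference of the pressure. At 145 kPa Cat lost its call without M3, at -1.01. Without M2, with M3 alone at that pressure, the differences were -1.27 for Cat, -1.28 for Nfe2l2 and -1.20 for Gpx1. They were -0.78 for Gclc, -0.78 for Sod2, -0.50 for Sod1 and -0.42 for Hmox1. In that fit Nqo1 (0.06) and Txnrd1 (0.49) were higher than in sham rats. At 200 kPa Nqo1 alone was called without M2, C2 or M3, and Nqo1 and Hmox1 (0.45) without C1. Cat, which lost its call in these fits, was -0.84 without M2 and without M3, -0.65 without C2 and -0.78 without C1. Without XH3, Nqo1 was 0.66 and Cat, with no call, was -0.64. Without XH1 neither Cat (-1.04) nor Nqo1 (0.46) was called and the only call, from XH3 alone, was Gclm, whose probe was not above background. With scaling to the 75th percentile Cat alone was called at 200 kPa (-0.89), and Nqo1 was 0.55 higher with no call. In both contrasts 0 of the 10 genes and 0% of all probes passed an adjusted p under 0.05, and the smallest limma adjusted p among the genes was 0.924 at 145 kPa and 0.989 at 200 kPa. The arrays of both 200 kPa rats lay in the second row of the slide, with C3 and M3. Within that row Nqo1 was 0.41 and Gclc 0.54 higher and Cat 0.33 lower at 200 kPa than in C3, each a smaller difference than against all sham rats. Hmox1 turned from -0.16 against all sham rats to 0.37, and the difference grew for Nfe2l2 (0.18 to 0.42) and Txnrd1 (0.40 to 0.55). It also grew for Sod2 (-0.25 to -0.31) and Gpx1 (-0.36 to -0.39), and Sod1 was -0.07 in both.

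The direct contrast of 200 with 145 kPa was added after the data had been seen. All 9 genes above background were higher at 200 kPa, where 54.2% of all probes were, but the sign turned for Txnrd1, Sod1, Sod2 and Gpx1 in at least 1 fit without a rat. Of the 10 genes, 2 had an unadjusted p under 0.05, beside 4.14% of probes. These were Nqo1, 0.55 higher (95% interval 0.07 to 1.02), and Gclc, 1.12 higher (95% interval 0.01 to 2.22). With 2 rats a group, an exact permutation test cannot go below 0.333. After adjustment 0 genes and 0% of probes passed, and the smallest limma adjusted p among the genes was 0.928. With scaling to the 75th percentile 0 genes had an unadjusted p under 0.05, where Nqo1 was 0.54 and Gclc 1.06 higher. With the deposited log2 values Gclc alone had one (1.07), and Nqo1 was 0.52 higher. Nqo1 alone was called without C1, C2 or C3, where the difference of Gclc stayed 1.12. Without XH3, where XH1 is the only 200 kPa rat, Gclc was 1.52 and Nqo1 0.64 higher, and Nqo1 lost its call. Without XH1 neither Gclc (0.71) nor Nqo1 (0.45) was called. Without M2, which sets the 200 kPa rats against M3 alone, Gclc was 1.59, Nfe2l2 1.46, Gpx1 0.85 and Sod2 0.52 higher. Sod1 (0.43), Cat (0.43) and Hmox1 (0.26) were higher too. In that fit Nqo1 lost its call, at 0.50, and Txnrd1 was -0.08. Without M3, which leaves M2 alone, neither Nqo1 (0.59) nor Gclc (0.64) was called, and Sod2 was lower at 200 kPa (-0.40). Both 200 kPa rats lay above all other rats for 2 of the 10 genes, Nqo1 and Gclc, as for 5.21% of all probes, a pattern looked for after the values of these genes had been seen. Among the 5 blast rats the slope on pressure was positive for all 9 genes above background, as for 54.5% of probes, but it turned for Txnrd1, Sod1, Sod2 and Gpx1 in at least 1 fit without a rat. With the sham rats included at 0 kPa it was negative for Nfe2l2, Hmox1, Cat, Sod1, Sod2 and Gpx1. For the slope among blast rats 0 genes had an unadjusted p under 0.05, where 2.84% of probes did, and 0% had an adjusted one. The slope over 55 kPa was 1.11 for Gclc (SE 0.47) and 0.53 for Nqo1 (SE 0.23), and with the sham rats included it was 0.12 for Gclc and 0.09 for Nqo1. Without 1 blast rat the slope of Gclc was from 0.70 (without XH1) to 1.60 (without M2), and 0.71 without M3, and that of Nqo1 from 0.37 (without XH1) to 0.64 (without M3). M3, 1 of the 145 kPa rats, was the lowest of all rats for 6 of the 9 genes above background, and it was also the lowest for 30.1% and the highest for 23.6% of the 16822 probes with every spot well above background.

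The genes differed in how far rats of the same group lay apart. The residual SD was 0.62 for Hmox1, 0.61 for Gclc, 0.59 for Gpx1 and 0.58 for Nfe2l2, against a median of 0.39 over probes well above background on all arrays. Each of these values was lower without 1 rat. The residual SD of Hmox1 was 0.14 without C1, and its SD was 1.06 in sham and 0.14 in blast rats. That of Nfe2l2 was 0.34 without M3, where the median over probes was also 0.34. That of Gclc was 0.44 without XH1, beside a median of 0.39, and that of Gpx1 0.45 without M3. With all rats the residual SD was 0.23 for Sod1 and 0.29 for Nqo1, and both stayed below the median over probes whichever rat was left out.

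The level of Nfe2l2 was also set against that of each other gene across the 8 rats. Among 29 relations tested in all, 0 passed Benjamini-Hochberg adjustment. The strongest positive relation of Nfe2l2 was with Gpx1 (r = 0.78, exact permutation p = 0.0210, adjusted 0.229, rho = 0.81, p = 0.0218, adjusted 0.316), and r was 0.62 without XH1 and M3, the rats farthest from the median of Nfe2l2. For Sod1, r was 0.76 (exact permutation p = 0.0335, adjusted 0.243, rho = 0.62, p = 0.115, adjusted 0.517) and 0.60 without those rats. For Gclc, r was 0.72 (exact permutation p = 0.0589, adjusted 0.285, rho = 0.19, p = 0.665, adjusted 0.876) and turned to -0.96 without them, so the positive relation rests on XH1 and M3. Nqo1 had an r of 0.22 (exact permutation p = 0.590, adjusted 0.777, rho = -0.19, p = 0.665, adjusted 0.876), which was -0.85 without those rats. Hmox1 moved the other way, from an r of 0.41 (exact permutation p = 0.252, adjusted 0.501, rho = 0.57, p = 0.151, adjusted 0.517) to 0.82. For Cat, r was 0.51 (exact permutation p = 0.200, adjusted 0.482, rho = 0.52, p = 0.197, adjusted 0.517) and 0.56 without those rats. For Sod2, r was 0.62 (exact permutation p = 0.126, adjusted 0.406, rho = 0.45, p = 0.267, adjusted 0.517) and 0.26 without them. Txnrd1 had an r of -0.35 (exact permutation p = 0.433, adjusted 0.627, rho = -0.40, p = 0.327, adjusted 0.558), which was -0.52 without them. Of 16822 probes well above background, 10.8% had an r with Nfe2l2 at least as high as that of Gpx1, 12.2% as that of Sod1 and 15.1% as that of Gclc. The lowest p of the family belonged to Gclm, whose probe was near background (r = -0.64, exact permutation p = 0.106, adjusted 0.385, rho = -0.93, p = 0.00223, adjusted 0.0647), with an r of -0.55 without XH1 and M3. For deviations from the row means of the slide, added after the data had been seen and given no test, r with Nfe2l2 was 0.76 for Gpx1, 0.75 for Sod1, 0.89 for Gclc, 0.71 for Nqo1, 0.36 for Hmox1, 0.42 for Cat, 0.57 for Sod2 and -0.30 for Txnrd1. For deviations from the means of its sides Txnrd1 turned to 0.33 and the signs of the others held.

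**Figure D3:**
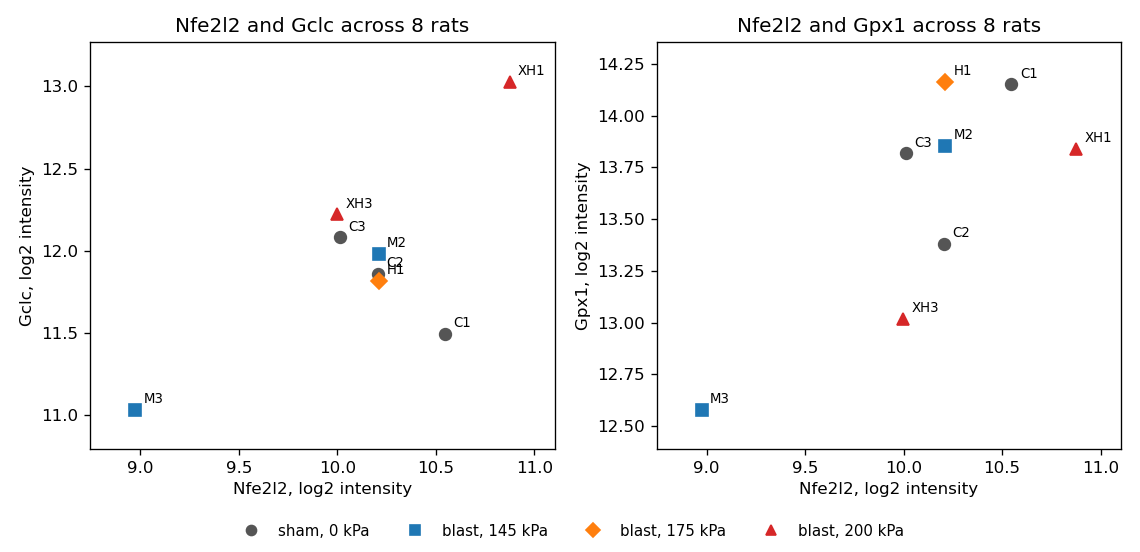
Log2 intensity of Gclc (left) and Gpx1 (right) against that of Nfe2l2, 1 point per rat, with symbols for the pressure. In the left panel the 6 rats other than XH1 and M3 run downward, with r of -0.96, while all 8 rats give 0.72.

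Hbb, a hemoglobin gene of red cells, was the only 1 of 26 listed cell type markers that could be named. Its brighter probe averaged 11.94 ± 1.90 (SD, n = 3) without and 14.77 ± 1.71 (SD, n = 5) with blast, 2.84 higher on the log2 scale (exact permutation p = 0.0893), and its other probe was 3.46 higher (exact permutation p = 0.0357). The difference of the brighter probe was 4.31 within the first row of the slide and 2.06 within the second, and 4.45 within the left columns and 0.41 within the right. Both probes had an unadjusted limma p under 0.05, as Cat did, and an adjusted one of 0.9999. Red cells carry catalase, and Cat had an r of -0.33 with Hbb (exact permutation p = 0.425, adjusted 0.627, rho = -0.26, p = 0.536, adjusted 0.819), which was 0.25 without M2 and C1 and 0.23 for deviations from the group means, but -0.68 for deviations from the row means of the slide and -0.35 from the means of its sides. The part of red cells in the level of Cat was not tested. Of 36 further genes of the pathway, 0 could be named through the gene table at hand, which is for Rattus rattus, and they were not analysed here. This says nothing of whether the array carries probes for them.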

How the data were processed

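The authors made each spot's intensity with Agilent Feature Extraction (version 10.7.1.1 per the file headers), which subtracts background. Besides names and positions, the other columns read for a spot were its median signal, its median background, and flags for outliers, saturation and signal well above background. A table of log2 values that the authors deposited for these arrays served as an alternative; each column has a median of 6.70 and follows log2 of its array's intensity, and how they were made is known only from the methods. Control spots and outlier spots were left out, log2 intensities were averaged over the spots of each probe, quantile normalization was done over the 8 arrays on linear intensities, and values had a lower limit of 3 before log2 was taken again. Quantile normalization on the log2 scale was run too, and the linear scale was kept with both results known. Groups were compared by the lmFit and eBayes functions of limma 3.58.1 under R 4.3.3, with Benjamini-Hochberg adjustment over all probes tested, and single genes with two-sided exact permutation tests. Slopes used probes with a value in all 5 blast rats, a requirement set with results in view. The brightest probe stood for a gene. All 10 genes were named by rule and Hbb by a primer list of the study. The sample labels name Rattus rattus, whereas the paper names Rattus norvegicus. The gene table at hand was for Rattus rattus, and 0 probe accessions matched it, so it could name no gene of this array. The members and lists were chosen with earlier results of these data known. Added after seeing the data were the contrast of 200 with 145 kPa, the relations with array signal, the count of genes highest in both 200 kPa rats, the count of genes lowest in M3, values within parts of the slide, residual SDs without each rat, correlations of deviations from slide row and side means and the log2-scale normalization. The limma fits for blast against sham, for 200 against 145 kPa and for the slope were tested on simulated data. Spot averaging and normalization were not.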

Additional observations from a re-analysis of the deposited data

How the results depend on the processing

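For blast against sham, 1 gene had an unadjusted p under 0.05, and 0 had with the methods' one-way analysis of variance, with array quality weights and with the slide row as a block. Leaving out 1 rat at a time gave 0 to 1 genes, and without C2 that gene was Txnrd1 (0.63), not Cat. Over all probes 850 had an unadjusted p under 0.05, 441 when only probes above background on at least 3 arrays were kept, which tests fewer probes, 2246 with array quality weights, 842 with quantile normalization on the log2 scale, and 657 to 1649 without 1 rat, the most without H1. At an adjusted p under 0.05 the count of probes was 0, and 0 to 3 without 1 rat, with 2 without C1 and 3 without C3. The count of genes at an unadjusted p under 0.05 was 1 at 145 kPa, and also 1 without any 1 sham rat or H1. At 200 kPa it was 2 (1 to 2 without 1 of those rats, and 1 with scaling to the 75th percentile). For 200 against 145 kPa it was 2 (1 to 2 without 1 of those rats, 0 with that scaling and 1 with the deposited values). For the slope it was 0 (0 to 1 without 1 blast rat, Gclc without M2 and Nqo1 without H1). Fits without M2, M3, XH1 or XH3 leave a group of 1 rat, so no counts by pressure are given for them here. With array quality weights the sign turned for Nfe2l2 (0.078) and Hmox1 (0.080). It turned in some fits without 1 rat, whose ranges for blast against sham were -0.41 to 0.069 for Nfe2l2, -0.63 to 0.32 for Hmox1, -0.048 to 0.45 for Gclc. At 145 kPa they were -0.72 to 0.23 for Hmox1, -0.095 to 0.094 for Nqo1, -0.78 to 0.17 for Gclc, -0.17 to 0.49 for Txnrd1, -0.78 to 0.14 for Sod2, -1.20 to 0.070 for Gpx1. At 200 kPa they were -0.26 to 0.62 for Nfe2l2, -0.50 to 0.45 for Hmox1, -0.20 to 0.057 for Sod1, -0.77 to 0.056 for Gpx1. For 200 against 145 kPa they were -0.082 to 0.58 for Txnrd1, -0.056 to 0.43 for Sod1, -0.40 to 0.52 for Sod2, -0.43 to 0.85 for Gpx1. For the slope they were -0.089 to 0.53 for Txnrd1, -0.023 to 0.43 for Sod1, -0.44 to 0.42 for Sod2, -0.50 to 0.76 for Gpx1. With the sham rats included the slope was -0.017 for Nfe2l2, -0.075 for Hmox1, -0.22 for Cat, -0.049 for Sod1, -0.049 for Sod2 and -0.076 for Gpx1. Without the 2 rats farthest from the median on the x axis, r turned sign for Nfe2l2 with Nqo1 (-0.85), Gclc (-0.96), for Hbb with Nfe2l2 (0.11), Hmox1 (0.17), Nqo1 (-0.19), Gclc (-0.098), Cat (0.25), Gpx1 (0.070), and for array signal with Nqo1 (0.050), Gclc (0.35). For deviations from group means it turned for Hbb with Nfe2l2 (0.055), Nqo1 (-0.28), Gclm (-0.15), Cat (0.23), Gpx1 (0.14). For deviations from slide row means it turned for array signal with Gclc (0.025), Cat (-0.21), and from the means of its sides for Nfe2l2 with Txnrd1 (0.33) and for Hbb with Nfe2l2 (0.080), Gclm (-0.15), Gpx1 (0.11). The cause was not tested for any of these. In deviations from group means, sham and blast rats with the same number in their titles correlated from -0.58 to 0.51, and other pairs from -0.67 to 0.61. Deviations within a group cancel out, which forces correlations of both signs, so these values cannot decide whether the numbers pair the rats. With the number as a replicate block 1 gene passed, Cat at -0.78. The counts of genes highest in both 200 kPa rats (2) and lowest in M3 (6) did not move with scaling, the deposited values or log2-scale normalization. The planned promoter motif search was not run. No fold change or slope of Gclm is printed, since its signal was near background, but they were computed under each setting that kept its probe, the counts of genes include it, and its sign turned in each comparison in at least 1 fit without a rat. The number of arrays, 3 and 5, limits every value.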
